A study of Mus musculus with 2 samples.

Results

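The cells described here come from single-cell RNA sequencing of molars and the tissue around them. They are called periodontal ligament fibroblasts after the marker genes that selected them. They were selected on measured values: 200 genes or more, no more than 20% mitochondrial UMIs (unique molecular identifiers, each counting 1 captured RNA molecule), at least 6 UMIs summed over Tnn, Aspn and Omd, and Col1a1 at 2% or more of the cell's UMIs. Cells past a limit on a gene of a neighbouring cell type were left out, the limits being fewer than 5 UMIs of Ibsp, fewer than 10 of Bglap and Bglap2 together, fewer than 3 of Mmp13, fewer than 5 over the adventitial genes Clec3b, Mfap5, Dpt, Pi16 and Ly6a, and fewer than 6 over the dental follicle genes Dio2, Grem1, Mmp11, Moxd1 and C1qtnf3. The rule found 1307 members among 19015 deposited cells, of which 17780 passed the limits on genes and mitochondrial UMIs. Levels of the 18 genes the rule reads, and contrasts between members and cells it left out, are therefore a description of the selection.

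The study asked what macrophages do during growth of the molar root, including for periostin in the ligament, osteogenic genes, TGF-β signalling and proliferation. Both groups were C57BL/6J mice at PN15.5 (postnatal day). The Lipo-Clo group received clodronate liposomes, which kill phagocytes that take them up, by intraperitoneal injection of 40 μg/g first given at PN3.5 and then every 3 days up to PN12.5, 4 times in all, and the Lipo-PBS group received vehicle liposomes on the same days. Mandibular first molars with surrounding tissue were digested with Dispase and Collagenase I, so that pulp, bone, follicle, gingiva and blood could all contribute cells. Each condition is 1 library, the number of mice behind it is not stated in the sources used here, and both libraries carry the same batch label. No value below has a replicate check, and no test between the conditions was possible. Intervals are exact ones at 95% (Clopper-Pearson for shares, Poisson for counts), and the error they cover is that of counting alone.

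The periodontal ligament is the band of collagen fibres that joins the root's cementum to the bone of its socket. Its fibroblasts descend from the dental follicle, lay down and turn over collagen I and III bundles, and share part of their programme with tendon cells. Aspn (asporin) and Omd (osteomodulin) encode small leucine-rich proteoglycans that bind collagen, and Tnn encodes tenascin-W, a glycoprotein of matrix near bone and teeth. Periostin (Postn), a matricellular protein of collagen-rich tissue under load, is a known target of TGF-β.

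Lipo-Clo held 705 members among 8886 kept cells (7.93%, 7.38 to 8.52%) and Lipo-PBS held 602 among 8894 (6.77%, 6.26 to 7.31%), which is 0.23 higher on the log2 scale (0.07 to 0.39). Which library had more of them turned on the limits. Before any cell was left out for a neighbouring cell type's gene, 1353 Lipo-Clo cells (15.2%) and 1641 Lipo-PBS cells (18.5%) had enough marker and Col1a1 UMIs, a log2 ratio of −0.28 (−0.38 to −0.17). Among those cells, the limits on Ibsp and osteocalcin (Bglap, Bglap2), both of bone matrix, removed 20.7% in Lipo-Clo and 29.6% in Lipo-PBS, Mmp13 removed 11.8% and 22.5%, and adventitial genes removed 8.13% and 16.0%. Follicle genes went the other way, at 17.5% and 12.7%. When every cell was first thinned to 2000 UMIs, 8.72% of 5633 and 9.45% of 5934 cells met the rule, a log2 ratio of −0.12 (−0.29 to 0.06). Of Col1a1-high cells, meaning all kept cells with Col1a1 at 2% or more of UMIs, members were 23.4% of 3015 in Lipo-Clo and 18.7% of 3213 in Lipo-PBS. Numbers of cells changed gradually across the marker limit: 75 Lipo-Clo and 58 Lipo-PBS cells that met every other criterion had 5 marker UMIs, 68 and 55 had 6, and 63 and 46 had 7.

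**Figure D1:**
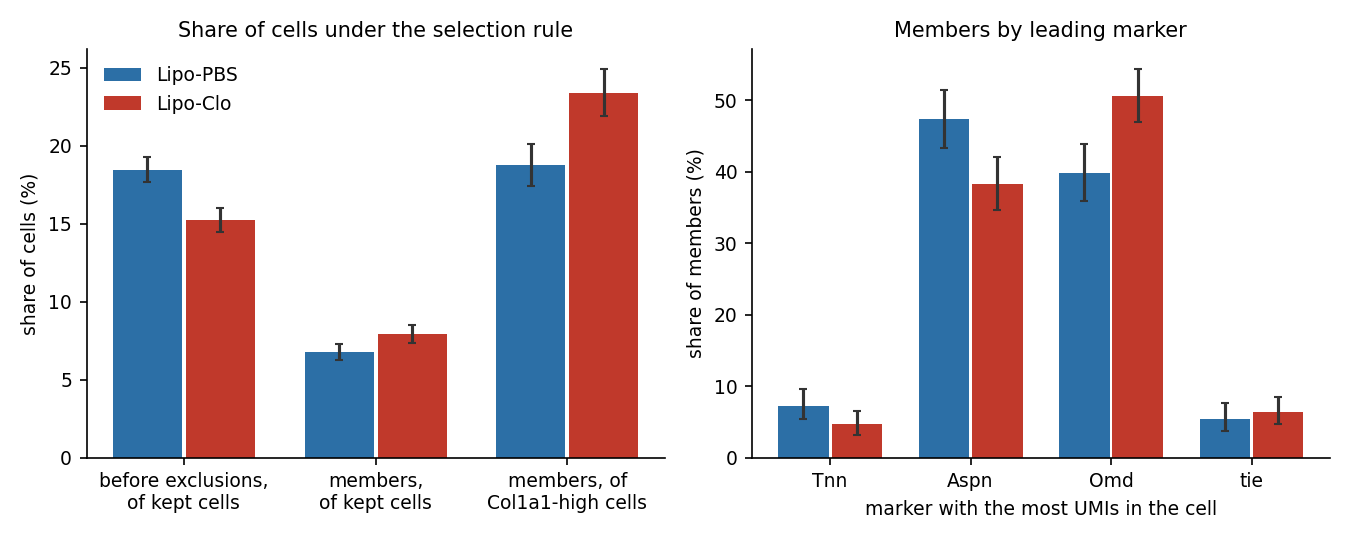
Share of cells in % (bars) with exact 95% binomial intervals (lines) in Lipo-PBS (blue) and Lipo-Clo (red). Left, marker-high and Col1a1-high cells before exclusions were the larger share in Lipo-PBS (18.5% against 15.2%), while members were the larger share in Lipo-Clo (7.93% against 6.77%). Right, members by the marker with the most UMIs in the cell, with Omd leading 50.6% in Lipo-Clo and 39.9% in Lipo-PBS.

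Members had a median of 4053 UMIs and 1754 genes in Lipo-Clo and 3806.5 UMIs and 1676.5 genes in Lipo-PBS, and together held 3021485 and 2401379 UMIs. The libraries shared 30 cell barcodes, none of them between members. The libraries differed in RNA coded by the mitochondrial genome, which took 0.300% of member UMIs from Lipo-Clo against 1.80% from Lipo-PBS. Other Col1a1-high cells showed the same, with 0.344% and 1.72%. All 12 mitochondrially coded genes in use were lower in Lipo-Clo members, with a median log2 ratio of −2.57. The part of this library-wide difference in the results below was not tested.

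The label was checked against genes the rule did not read. Postn was seen in 96.7% of Lipo-Clo and 95.3% of Lipo-PBS members, Col12a1 (a collagen that coats fibrils in ligament and tendon) in 96.0% and 97.0%, and Tnmd (tenomodulin, a marker of mature tendon and ligament cells) in 65.0% and 58.5%. Scx, the tendon transcription factor scleraxis, was seen in 3.97% and 6.64% of members and so did not pass the filter described below. Members were low in the odontoblast gene Dspp, at 3.31 CPM in Lipo-Clo against 7.91 CPM in Lipo-PBS, where other Col1a1-high cells had 225 and 119 CPM. CPM here is counts scaled to a total of 1e+06, from UMIs summed over the cells of a class in a library. The ligament genes did not set members apart: Postn was at 2067 and 3176 CPM in members of Lipo-Clo and Lipo-PBS against 2610 and 3250 CPM in other Col1a1-high cells, Col12a1 at 1715 and 2766 CPM against 1580 and 2611 CPM, and Tnmd at 409 and 369 CPM against 423 and 322 CPM. The label thus rests on the 3 marker genes of the rule.

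The 3 selecting genes were shared unevenly among members. Omd had at least 1 UMI in 95.5% of Lipo-Clo and 91.5% of Lipo-PBS members, Aspn in 84.7% and 89.0%, and Tnn in 69.6% and 68.1%. In cells with blood lineage genes (at least 3 UMIs over Ptprc, Coro1a, Laptm5, Tyrobp, Cd52 and Rac2, and not Col1a1-high; median 2850.5 and 2497 UMIs), which should lack the markers, Omd was seen in 12.7% and 16.4%, Aspn in 9.37% and 22.1%, and Tnn in 4.21% and 8.48%. All 3 were seen together in 396 Lipo-Clo members (56.2%) and 337 Lipo-PBS members (56.0%). In pairs of values without a library name, here and below, Lipo-Clo comes first, and a lone value in brackets after a pair is the log2 of the first over the second. Tnn was at 422 and 718 CPM, Aspn at 1346 and 1880 CPM, and Omd at 1605 and 1740 CPM. In Lipo-Clo, Omd led 357 members and Aspn 270. In Lipo-PBS, Aspn led 285 and Omd 240. Tnn led only 33 and 44. Aspn (chromosome 13, 49544443 to 49567565) and Omd (chromosome 13, 49582462 to 49592822) are neighbours on the plus strand in GENCODE M21 on GRCm38, beside Ogn (chromosome 13, 49608046 to 49624501), which encodes osteoglycin, another proteoglycan of the same family. Ogn stood at 529 CPM in Lipo-Clo against 512 CPM in Lipo-PBS, a ratio of 0.05 on the log2 scale (−0.06 to 0.16), where other Col1a1-high cells had −0.45. Tnn lies on chromosome 1 (160085029 to 160153580, minus strand).

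Members led by Aspn and members led by Omd also differed in genes the rule did not read. This split uses the cells' own UMIs, so it is a description. In both libraries, 12 of 5345 genes (0.225%) were at least 2-fold higher in Aspn-led members and 8 (0.15%) at least 2-fold higher in Omd-led members. The Aspn-led side held the matrix genes Fmod, Abi3bp, Edil3, Matn4, Col14a1 and Ccdc80 with Lgals3, Hspb1, Chodl, Lpl, Fam167a and Slpi. Fmod (fibromodulin, which controls collagen fibril width) was at 54.5 CPM in Aspn-led and 23.1 CPM in Omd-led members of Lipo-Clo, and at 164 and 31.4 CPM in Lipo-PBS. Abi3bp (a matrix protein that binds cells and collagen) was at 86.1 and 18.6 CPM in Lipo-Clo and at 261 and 79.0 CPM in Lipo-PBS. The Omd-led side held the secreted Wnt inhibitors Wif1 and Notum together with Pcp4, Sema3a, Inpp4b, Dlg2, Ptprz1 and the fibril-associated collagen gene Col9a2. Pcp4, a small calmodulin-binding protein, was at 29.9 CPM in Aspn-led and 197 CPM in Omd-led members of Lipo-Clo, and at 45.6 and 231 CPM in Lipo-PBS. Wif1 was at 227 and 685 CPM in Lipo-Clo and at 312 and 1112 CPM in Lipo-PBS. These genes were picked for being 2-fold apart the same way in both libraries, so their shared direction is a result of the choice.

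Against other Col1a1-high cells, members stood apart by few genes beyond those of the rule. Only 3 of 5345 genes (0.0561%) were at least 2-fold higher in members in both libraries, and 18 (0.337%) were at least 2-fold lower. Pappa2, a protease that frees IGF from its binding proteins (chromosome 1, 158711727 to 158980490, minus strand in GRCm38), was at 219 CPM in Lipo-Clo members and 204 CPM in Lipo-PBS members, 1.53 and 1.70 above other Col1a1-high cells on the log2 scale. Rps6ka5, a kinase that phosphorylates histone H3 and CREB, was at 60.2 and 67.5 CPM, 1.01 and 1.05 above. Lrp8, a receptor for reelin, had 25.5 and 22.1 CPM and was 1.48 and 1.28 above. Lrp8 was below the UMI limit for naming and was singled out after its values were seen. Next in order of the smaller of the 2 values came Fgfr3 (1.31 and 0.96 above), a fibroblast growth factor receptor, Insl6 (1.15 and 0.91), a relaxin family peptide, Pkdcc (0.85 and 0.98), a secreted kinase, and Npnt (1.11 and 0.84), an integrin ligand. The lower side held Igfbp6, Thbs1, Sparcl1, Gsn, Col18a1, Apcdd1 and Cdh2, and also the neutrophil granule genes Ngp and Camp.

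Between conditions, the 5359 genes seen in 10% or more of the members of either library were in use. By size alone, 231 (4.31%) were at least 1.5-fold higher in Lipo-Clo and 478 (8.92%) at least 1.5-fold lower, and the median log2 ratio of all was 0.03. With totals that leave out ribosomal protein, haemoglobin and mitochondrially coded genes, 163 were higher and 602 lower. The filter let in 458 genes through Lipo-Clo alone and 342 through Lipo-PBS alone, and these make up 90 of the 231 and 176 of the 478, so that the filter itself favours that side for them. Each list below, cell type markers aside, is therefore also given whole, meaning its genes with at least 20 UMIs over both libraries whether in use or not. Over all 11513 genes with that many UMIs, 51.8% were lower and the median was −0.02. Every count of list genes past 1.5-fold below stands against the 4.31% higher and 8.92% lower of all genes in use. Where a list holds genes of the rule, its medians and counts include them, and no median without them is given. The genes furthest apart were taken among those with at least 200 UMIs. Mitochondrially coded genes, at a median of −2.57, are not named among them. On the higher side were the mitotic genes Ube2c, Birc5 and Pclaf, the neutrophil genes S100a8, S100a9, Ngp and Camp, the peptide hormone gene Insl6, the glucocorticoid-induced Fkbp5 and the rule gene Moxd1. On the lower side were Eln, Col14a1, Abi3bp, Sfrp2, Igfbp6, Igfbp2, Slpi, Lgals7, a galectin of stratified epithelium, and Bnc2, a zinc finger factor. Of these, Ube2c, Birc5, Pclaf, Ngp and Fkbp5 passed the filter through Lipo-Clo alone, and all those on the lower side except Eln and Sfrp2 through Lipo-PBS alone.

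**Figure D2:**
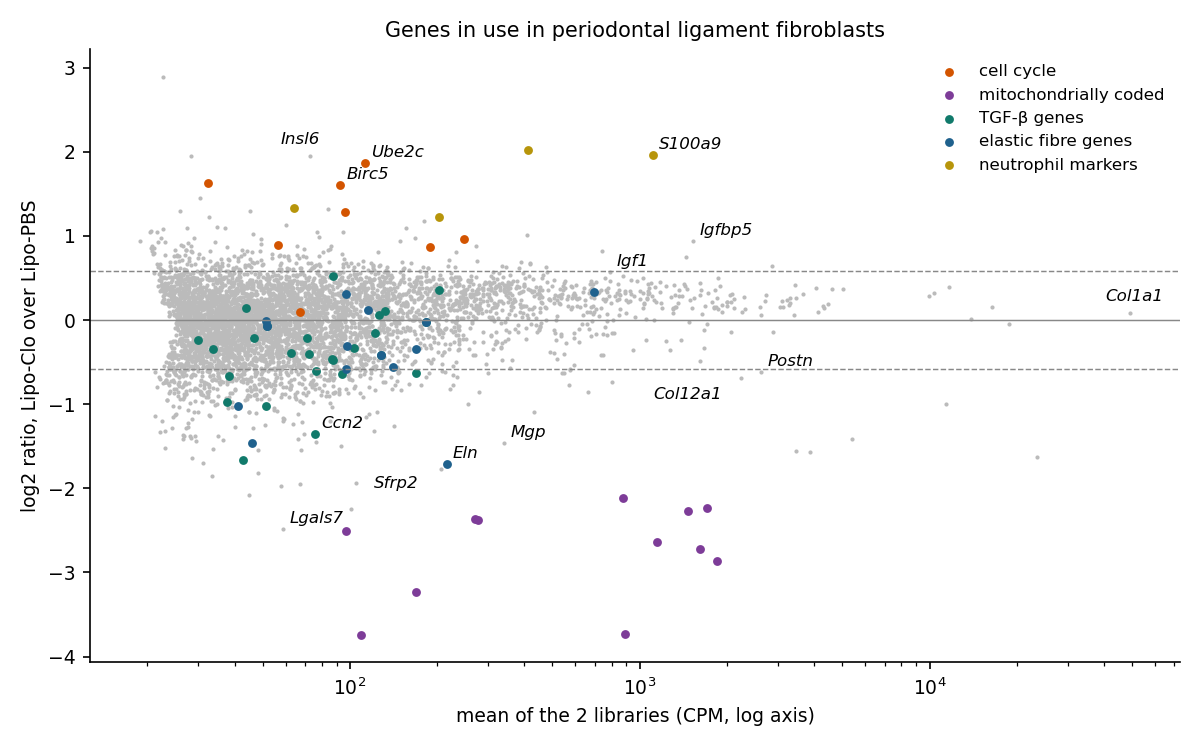
Each point is 1 of 5359 genes in use in members, with the mean of both libraries in CPM on a log axis and the log2 ratio of Lipo-Clo over Lipo-PBS. Dashed lines mark 1.5-fold, and colours mark cell cycle, mitochondrially coded, TGF-β, elastic fibre and neutrophil genes. Mitochondrially coded genes lie lowest, at a median of −2.57, and cell cycle genes lie above the line of no difference.

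The ligament genes split. Of 14 ligament and tendon genes in use, 1 (7.14%) was past 1.5-fold higher and 5 (35.7%) past 1.5-fold lower, against 4.31% and 8.92% of all genes in use. The median log2 ratio was −0.15, against 0.03 over all genes in use and −0.20 for the same list in other Col1a1-high cells. Within those it was −0.68 with bone genes, −0.14 with Mmp13, −0.10 with follicle genes, 0.06 with adventitial genes and 0.09 with few marker UMIs. Among the 133 and 72 members with no excluding gene seen it was −0.48. The whole list held 8 higher and 11 lower, with a median of −0.40. Postn (chromosome 3, 54361109 to 54391037, plus strand in GRCm38) was at 2067 CPM in Lipo-Clo against 3176 CPM in Lipo-PBS, a ratio of −0.62 on the log2 scale (−0.67 to −0.57), and other Col1a1-high cells gave −0.32. By leading marker, the Postn ratio was −0.66 in Aspn-led and −0.21 in Omd-led members. Periostin RNA was thus lower in Lipo-Clo in both kinds of member, less so where Omd led, and the difference between them was not tested. Col12a1 was at 1715 and 2766 CPM, a log2 ratio of −0.69, close to the −0.72 of other Col1a1-high cells. Edil3, an integrin-binding matrix protein, was at 69.5 and 174 CPM (−1.32), Fmod at 34.4 and 101 CPM (−1.55), and Prelp, a proteoglycan that anchors basement membrane to collagen, at 14.6 and 47.5 CPM (−1.70). Fmod and Prelp passed the filter through Lipo-PBS alone.

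Other ligament genes lay on both sides. Igfbp5 (chromosome 1, 72857932 to 72874884, minus strand in GRCm38), which binds IGF and matrix, was at 2014 CPM in Lipo-Clo against 1052 CPM in Lipo-PBS, a ratio of 0.94 on the log2 scale (0.87 to 1.00). It was seen in 90.1% and 74.4% of members, and other Col1a1-high cells gave 0.82. Tnmd was at 409 and 369 CPM, a log2 ratio of 0.15 (0.02 to 0.28). Thbs4, thrombospondin 4 of tendon matrix, was at 833 and 1067 CPM (−0.36), and Mkx, a transcription factor of tendon and ligament, at 44.3 and 58.7 CPM (−0.40). Six2, a developmental transcription factor, was at 54.6 and 36.6 CPM (0.58), just short of 1.5-fold.

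**Figure D3:**
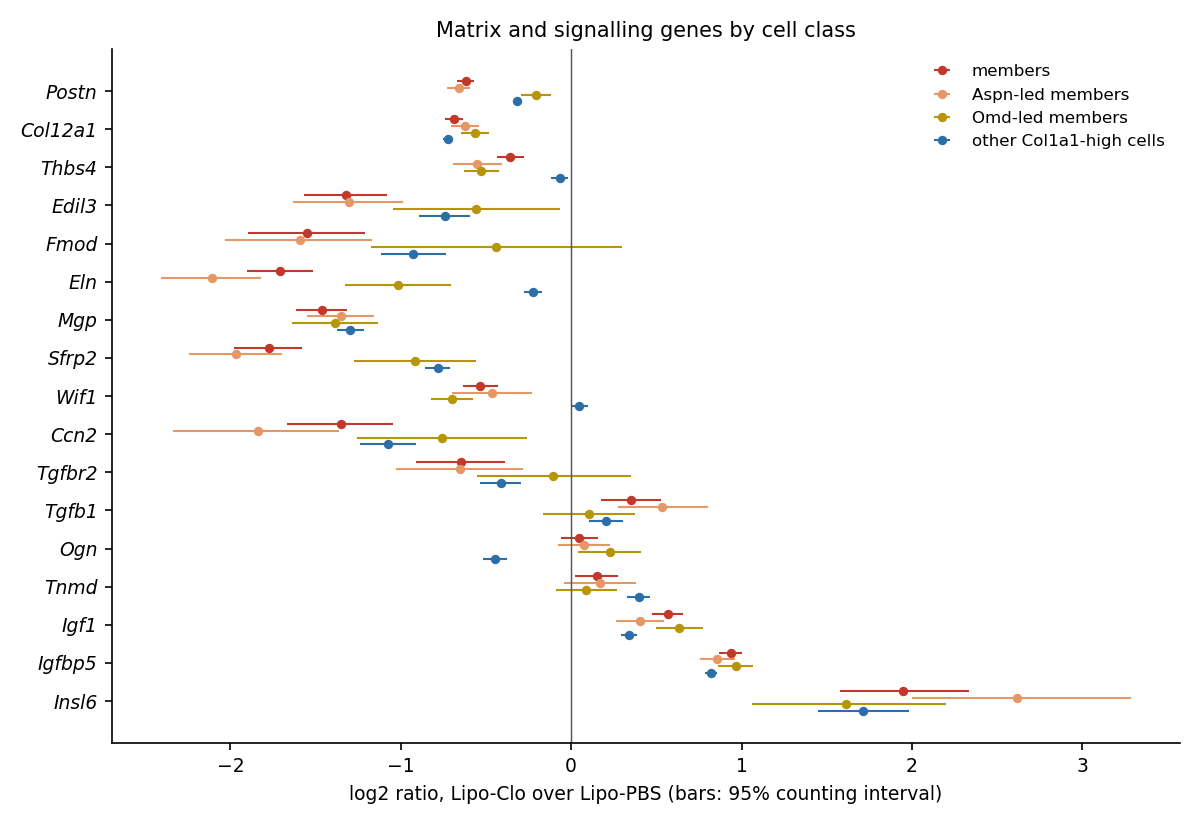
Log2 ratio of Lipo-Clo over Lipo-PBS for 17 genes in all members (red), Aspn-led members (orange), Omd-led members (olive) and other Col1a1-high cells (blue), with exact 95% counting intervals as bars. Eln lies at −1.71 in members and −0.22 in other Col1a1-high cells as a whole (−1.96 in those with follicle genes, not drawn), while Igfbp5 lies between 0.82 and 0.97 in all 4 classes.

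Col3a1, a bulk collagen of the ligament, was at 17336 and 15570 CPM, a log2 ratio of 0.15. Col1a1, the main fibrillar collagen, was at 50662 and 47853 CPM, a level that the rule's own limit on Col1a1 helps to set. Of 9 fibrillar collagens in use, 6 were lower, none was past 1.5-fold higher and 2 were past 1.5-fold lower, the minor chains Col5a3 (36.1 and 61.2 CPM, −0.76) and Col24a1 (41.4 and 62.9 CPM, −0.60), and the median was −0.05. Whole, the list held 3 higher and 8 lower with a median of −0.14. Of 24 genes for folding and cross-linking collagen, 16 were higher and 2 (8.33%, near the 8.92% of all genes in use) past 1.5-fold lower, with a median of 0.13. Whole, the list held 17 higher and 13 lower (0.07). Set against genes of like span on the genome, as described below, 10 of the 24 were higher and 14 lower with a median of −0.03. Serpinh1, the collagen chaperone HSP47, was at 2302 and 1862 CPM (0.31), whereas the lysyl oxidase family members Loxl1 (55.9 and 104 CPM, −0.89) and Loxl2 (44.0 and 76.2 CPM, −0.79) were lower and Lox itself was at 215 and 238 CPM (−0.14).

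Genes for proteins that sit on or bind collagen were mostly lower. Of 7 fibril-associated and beaded collagens in use, 6 were lower, 2 of them past 1.5-fold, with a median of −0.25 against 0.04 in other Col1a1-high cells. The whole list held 1 higher and 7 lower (−0.37). The median turned to 0.11 among the 133 and 72 members with no excluding gene seen and was −0.53 with at least 10 marker UMIs. Col14a1, which sits on collagen fibrils (chromosome 15, 55307750 to 55520803, plus strand in GRCm38), was at 23.5 CPM in Lipo-Clo against 92.4 CPM in Lipo-PBS, a ratio of −1.98 on the log2 scale, and passed the filter through Lipo-PBS alone. Other Col1a1-high cells gave −0.89 as a whole, with −2.37 in those with bone genes, −2.11 with Mmp13, −1.52 with follicle genes and −0.08 with adventitial genes. Of 8 small leucine-rich proteoglycans in use, the selecting genes Aspn and Omd among them, 3 were past 1.5-fold lower and the median was −0.33, against −0.51 in other Col1a1-high cells. Aspn and Omd, both lower, count in these medians, so the contrast between classes is in part a description of the selection. Dcn (decorin) was at 472 and 856 CPM (−0.86), Bgn (biglycan) at 724 and 816 CPM (−0.17), and Lum (lumican) at 3199 and 2885 CPM (0.15). Matricellular and adhesive genes were lower for 14 of 19, 5 of them past 1.5-fold, with a median of −0.32, and 1 of those 5 was the selecting gene Tnn. Whole, the proteoglycans held 3 higher and 10 lower (−0.48), with Fmod and Prelp again in use through Lipo-PBS alone. The matricellular genes held 6 higher and 17 lower (−0.36), with 1 gene in use through Lipo-PBS alone. Fn1 (fibronectin) was at 235 and 363 CPM (−0.63), and Sparc at 13947 and 13805 CPM (0.01).

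Elastic fibre genes were mostly lower. Of 14 in use, 11 were lower and 3 (21.4%, against 8.92% of all genes in use) past 1.5-fold lower, with a median of −0.33 in members. Of the 14, 1 was in use through Lipo-PBS alone, and the whole list held 4 higher and 13 lower, also at −0.33. Other Col1a1-high cells gave −0.09 as a whole, with −0.35 in those with few marker UMIs, −0.27 with bone genes, −0.25 with Mmp13, 0.02 with follicle genes and 0.13 with adventitial genes. Eln, which encodes the elastin core (chromosome 5, 134702593 to 134747323, minus strand in GRCm38), was at 101 CPM in Lipo-Clo against 330 CPM in Lipo-PBS, a ratio of −1.71 on the log2 scale (−1.91 to −1.52), and was seen in 22.8% and 33.1% of members. In other Col1a1-high cells the ratio was −0.22 as a whole, but −1.96 in those with follicle genes and 0.67 in those with adventitial genes. It was −2.11 in Aspn-led members and −1.02 in Omd-led members. Fbln2 (fibulin 2) was at 27.1 and 55.0 CPM (−1.02) and Fbn1 (fibrillin 1, the microfibril backbone) at 114 and 168 CPM (−0.56). The Fbln2 ratio had the other sign among members with no excluding gene seen. Mfap2, another microfibril gene, went the other way at 773 and 614 CPM (0.33). The list also holds the rule gene Mfap5, which counts in these medians.

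Genes of TGF-β signalling were mostly lower, in members and in other Col1a1-high cells alike. Of 26 in use, 21 were lower and 8 (30.8%, against 8.92% of all genes in use) were past 1.5-fold lower. None was past 1.5-fold higher (4.31% of all genes in use were), and the median was −0.37 in members and −0.34 in other Col1a1-high cells. Of the 26, 3 were in use through Lipo-PBS alone, and the whole list held 6 higher and 25 lower (−0.39). Among ligands, Tgfb1 was higher, at 227 CPM in Lipo-Clo against 178 CPM in Lipo-PBS (0.35, 0.18 to 0.53), Tgfb3 was at 129 and 123 CPM (0.06), and Tgfb2 was at 91.3 and 115 CPM (−0.34). The receptor genes Tgfbr1 (60.6 and 92.4 CPM, −0.61) and Tgfbr2 (73.1 and 115 CPM, −0.65) were past 1.5-fold lower. So was the co-receptor gene Tgfbr3 (25.5 and 50.0 CPM, −0.97), in use through Lipo-PBS alone. Endoglin (Eng), another co-receptor, was short of 1.5-fold at 27.5 and 32.5 CPM (−0.24). The activin genes Acvr1 (a receptor) and Inhba (a ligand subunit) were at −0.39 and 0.14 on the log2 scale. Targets and feedback genes lay on both sides. Ccn2, a growth factor of connective tissue, was at 42.7 and 109 CPM (−1.35), Ldlrad4 at 33.8 and 68.7 CPM (−1.03), Pmepa1, a feedback inhibitor, at 132 and 205 CPM (−0.63), and Skil at 73.1 and 102 CPM (−0.47). Tgfbi, a matrix protein, was at 136 and 127 CPM (0.10), and Tgfb1i1, an adhesion protein, at 103 and 71.6 CPM (0.53).

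Wnt genes were mostly lower. Of 20 in use, 14 were lower and 5 (25%, against 8.92% of all genes in use) past 1.5-fold lower, with a median of −0.35 in members. Of the 20, 2 were in use through Lipo-PBS alone, and the whole list held 10 higher and 26 lower (−0.23). Other Col1a1-high cells gave −0.03 as a whole, with −0.38 in those with bone genes, −0.37 with Mmp13 and 0.22 with few marker UMIs. Sfrp2, a secreted Wnt modulator (chromosome 3, 83766321 to 83774316, plus strand in GRCm38), was at 93.0 CPM in Lipo-Clo against 319 CPM in Lipo-PBS, a ratio of −1.78 on the log2 scale, and was seen in 12.9% and 34.4% of members. Among members with no excluding gene seen it turned to 0.22 (−0.35 to 0.81). The ratio was −0.78 in other Col1a1-high cells as a whole and −2.67 in those with follicle genes. Wif1 was at 484 and 700 CPM (−0.53), where other Col1a1-high cells gave 0.05. Sfrp4 was at 46.3 and 91.6 CPM (−0.98), Lgr5, a receptor for R-spondins, at 16.5 and 38.7 CPM (−1.23), and Lrp6, a Wnt co-receptor, at 51.3 and 92.4 CPM (−0.85). Apcdd1, a Wnt inhibitor, was higher at 66.9 and 46.2 CPM (0.53), and the ligand gene Wnt5a was at 222 and 197 CPM (0.17).

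In the IGF system the ligand gene Igf1 was higher and genes of the binding proteins lay on both sides. Igf1 was at 942 CPM in Lipo-Clo against 637 CPM in Lipo-PBS, a ratio of 0.57 on the log2 scale (0.47 to 0.66), and other Col1a1-high cells gave 0.34. Igfbp6 (chromosome 15, 102144362 to 102149511, plus strand in GRCm38), which prefers IGF2, was at 17.2 and 72.9 CPM (−2.08), Igfbp2 at 27.8 and 107 CPM (−1.94) and Igfbp3 at 88.0 and 156 CPM (−0.83), against the higher Igfbp5 above. Of 11 genes in use, 1 was past 1.5-fold higher and 3 past 1.5-fold lower, with a median of −0.15. Of those 3, Igfbp2 and Igfbp6 were in use through Lipo-PBS alone, and the whole list held 4 higher and 11 lower (−0.26). Set against genes of like span, 6 of the 11 were higher and 5 lower, and the median turned to 0.07. Of 14 BMP genes in use, 7 were higher, with a median of 0.02. Of these 14, 2 were in use through Lipo-PBS alone, and the whole list held 11 higher and 16 lower (−0.16). Bmp3, which restrains bone formation, was at 212 and 99.5 CPM (1.09), and Bmp4 at 17.5 and 30.0 CPM (−0.77). Hedgehog genes were few, with 5 in use and none past 1.5-fold, and Gli1 itself had 13 UMIs in Lipo-Clo and 11 in Lipo-PBS members. The median of the 5 was 0.06, but the whole hedgehog list held 4 higher and 8 lower (−0.10).

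More osteogenic genes were lower than higher, with rule genes in that count. Of 12 in use, 9 were lower and 5 past 1.5-fold lower, but 3 of those 5 were the rule genes Ibsp, Bglap and Bglap2, held low by the selection. The median was −0.38 in members. It was 0.12 in other Col1a1-high cells as a whole, which include cells left out for these genes. Those with follicle genes gave −0.33 and those with adventitial genes −0.29. Of the 12, 2 were in use through Lipo-PBS alone, and the whole list held 6 higher and 15 lower (−0.51). These values count the 3 rule genes, so the contrast between classes is in part a description of the selection. The other 2 of the 5 past the limit were Mgp (matrix Gla protein, an inhibitor of mineralization), at 181 and 499 CPM (−1.46), and Pdpn (podoplanin), at 33.1 and 61.2 CPM (−0.89). Runx2, the factor that commits cells to the osteoblast lineage, was at 596 and 643 CPM (−0.11). Sp7 (osterix), which acts after Runx2, was at 77.8 and 56.6 CPM (0.46), and Alpl (alkaline phosphatase) at 475 and 377 CPM (0.33). Mgp, at −1.30 in other Col1a1-high cells, was lower in both classes.

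Mesenchymal transcription factor genes had a median of −0.41 with 8 of 23 past 1.5-fold lower, against −0.23 in other Col1a1-high cells as a whole and −0.50 in those with follicle genes. The whole list held 11 higher and 17 lower (−0.30), and Creb5 and Bnc2 were in use through Lipo-PBS alone. Creb5 was at 14.6 and 52.5 CPM (−1.85), Bnc2 at 21.2 and 75.0 CPM (−1.82), Nfib at 49.0 and 138 CPM (−1.49), and Prrx1, a factor of skeletal and dental mesenchyme, at 164 and 251 CPM (−0.61). Msx1, a factor of tooth mesenchyme, was higher at 161 and 115 CPM (0.49), as were Twist1 at 349 and 280 CPM (0.32) and Maf at 611 and 514 CPM (0.25). The span of a gene on the genome moved with these ratios. With genes in use split into 5 equal bins by span in GENCODE M21, medians ran 0.25, 0.21, 0.05, −0.11 and −0.39 from shortest to longest, and 287 of 1068 genes (26.9%) in the bin of longest genes were past 1.5-fold lower against 3.93% in the bin of shortest. Other Col1a1-high cells ran from 0.21 to −0.28. Relative to genes of the same bin, the list medians were −0.15 for transcription factors, −0.04 for axon guidance genes (−0.38 before, with 17 of 21 in the bin of longest genes), −0.10 for Wnt, −0.13 for elastic fibre, −0.24 for TGF-β and −0.31 for osteogenic genes. The osteogenic value counts the rule genes Ibsp, Bglap and Bglap2. Whole, the axon guidance list held 8 higher and 24 lower (−0.44). Of the 21 in use, 2 passed the filter through Lipo-PBS alone and 1 through Lipo-Clo alone. The part of gene span in these results was not otherwise tested.

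**Figure D4:**
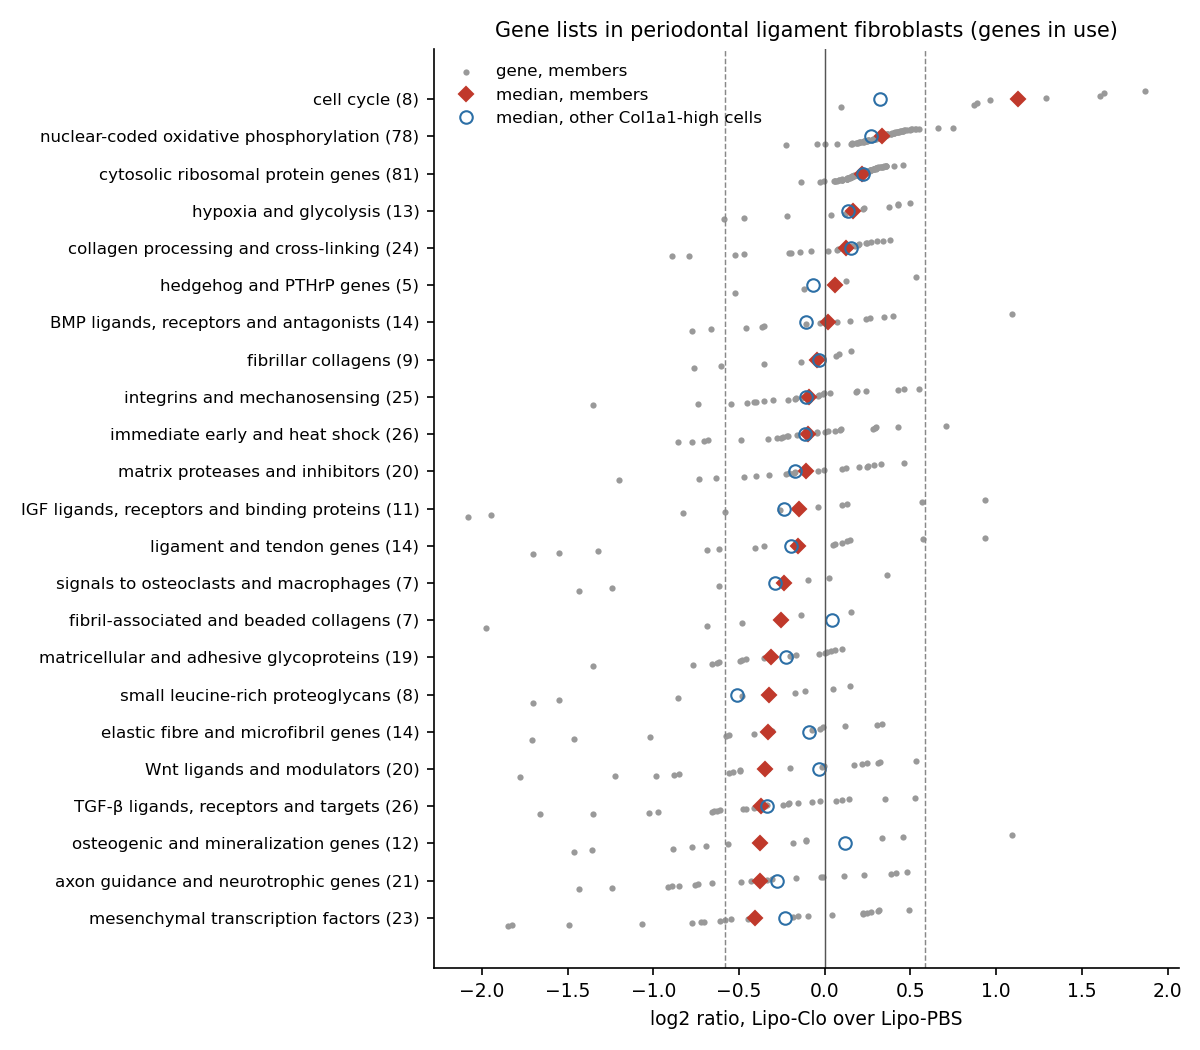
Log2 ratio of Lipo-Clo over Lipo-PBS for the genes in use of each list (grey points, the number of genes in brackets), with the list median in members (red diamonds) and in other Col1a1-high cells (blue circles). Dashed lines mark 1.5-fold. The cell cycle median lies at 1.13 in members and 0.32 in other Col1a1-high cells (0.97 and 0.28 over the whole list, as 5 of the 8 genes drawn passed the filter through Lipo-Clo alone), and 16 of the 23 list medians for members lie below 0.

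Integrins and mechanosensing genes had a median of −0.09 with 2 of 25 past 1.5-fold lower, a share near that of all genes in use (8.92%). Whole, the list held 10 higher and 23 lower (−0.135), and 1 of the 25 was in use through Lipo-Clo alone. Itgb1, the β1 subunit of collagen and fibronectin receptors, was at 600 and 999.8 CPM (−0.74), against −0.65 in other Col1a1-high cells. Matrix proteases and their inhibitors had a median of −0.11 with 3 of 20 past 1.5-fold lower, 1 of them Mmp13, held low by the rule (which also limits Mmp11), and the furthest Fap, a fibroblast surface protease, at 52.0 and 120 CPM (−1.20), with Mmp2 (gelatinase A) at 473 and 625 CPM (−0.40). The whole protease list held 9 higher and 18 lower (−0.18), and 1 of the 20 was in use through Lipo-Clo alone. Of 7 genes that signal to osteoclasts and macrophages, 3 were past 1.5-fold lower (8.92% of all genes in use were), Postn with the semaphorin genes Sema3a (15.9 and 42.9 CPM, −1.43) and Sema3c (37.7 and 89.1 CPM, −1.24). Of the 7, 2 were in use through Lipo-PBS alone, Sema3a among them, and the whole list held 4 higher and 12 lower (−0.48). The osteoclast regulators were scarce, with 9 and 21 UMIs of Tnfsf11 (RANKL) and 22 and 22 UMIs of Tnfrsf11b (osteoprotegerin) over all members. Immediate early and heat shock genes had a median of −0.10, and hypoxia and glycolysis genes 0.16. Whole, the former held 10 higher and 19 lower (−0.11), with 1 gene in use through Lipo-PBS alone. The latter held 13 higher and 8 lower (0.12). Nuclear-coded oxidative phosphorylation genes were higher for 76 of 78 with a median of 0.33, and cytosolic ribosomal protein genes for 78 of 81 with a median of 0.22, and other Col1a1-high cells gave 0.27 and 0.22. Whole, the 2 lists held 78 higher and 2 lower (0.33) and 78 higher and 3 lower (0.22). Relative to genes of like span, 61 of the 78 oxidative phosphorylation genes in use were higher with a median of 0.11. Of the 81 ribosomal protein genes, 30 were then higher and 51 lower with a median of −0.04.

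Cell cycle genes were higher in Lipo-Clo members. Of 24 genes on the list, 8 were in use, all 8 were higher in Lipo-Clo and 7 were past 1.5-fold, with a median log2 ratio of 1.13 against 0.32 in other Col1a1-high cells. As 5 of the 8 passed the filter through Lipo-Clo alone, the whole list is the fairer count: 23 of 24 were higher and 1 lower, with a median of 0.97 in members and 0.28 in other Col1a1-high cells. Ube2c, which marks mitotic cyclins for destruction (chromosome 2, 164769898 to 164778822, plus strand in GRCm38), was at 176 CPM in Lipo-Clo against 48.3 CPM in Lipo-PBS, a ratio of 1.87 on the log2 scale (1.58 to 2.17). Birc5 (survivin, which acts in chromosome segregation, on chromosome 11, 117849251 to 117855743, plus strand in GRCm38) was at 139 and 45.8 CPM, a log2 ratio of 1.60 (1.30 to 1.92). Tyms, which makes thymidylate for replication, was at 49.0 and 15.8 CPM (1.63), and Top2a, the topoisomerase that untangles chromosomes, at 73.1 and 39.6 CPM (0.89). Among members with no excluding gene seen, Top2a had the other sign, and the median of the genes in use was 1.40. Mki67, not in use, had 110 UMIs in Lipo-Clo and 42 in Lipo-PBS members (1.06). Pcna, the replication clamp, was level at 69.5 and 65.0 CPM (0.10).

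As cell cycle genes were higher together, the 250 bases before the start of those in use were read from RefSeq on GRCm38.p6, in which 7 of the 8 genes matched. They were searched on both strands for CCAAT, the letters bound by NF-Y, and for TTTGAA or TTCGAA, the letters of the CHR element known from mitotic promoters. The capitals below mark these letters, read from the gene's strand, in Top2a (chr11:99024190-99024439, minus strand), Hmgb2 (chr8:57511593-57511842, plus strand) and Birc5 (chr11:117848987-117849236, plus strand), shown as 2 of the promoters with both motifs and 1 of those with neither.
Top2a: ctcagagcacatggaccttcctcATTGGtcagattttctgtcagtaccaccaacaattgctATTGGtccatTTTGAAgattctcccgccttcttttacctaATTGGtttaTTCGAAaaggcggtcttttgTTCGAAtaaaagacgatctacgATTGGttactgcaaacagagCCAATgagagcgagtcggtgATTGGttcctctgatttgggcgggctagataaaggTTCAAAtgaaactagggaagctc
Hmgb2: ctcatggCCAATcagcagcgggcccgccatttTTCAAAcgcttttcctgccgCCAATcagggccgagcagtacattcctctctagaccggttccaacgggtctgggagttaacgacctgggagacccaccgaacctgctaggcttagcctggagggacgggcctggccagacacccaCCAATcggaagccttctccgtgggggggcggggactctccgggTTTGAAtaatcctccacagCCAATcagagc
Birc5: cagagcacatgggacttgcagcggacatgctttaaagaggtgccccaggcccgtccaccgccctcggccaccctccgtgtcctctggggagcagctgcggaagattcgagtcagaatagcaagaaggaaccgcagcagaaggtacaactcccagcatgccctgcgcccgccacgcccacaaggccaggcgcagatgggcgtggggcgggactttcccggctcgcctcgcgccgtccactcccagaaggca
Ube2c also held both, with 6 and 1 matches, and Tyms neither. Top2a held 6 matches to CCAAT and 4 to TTTGAA or TTCGAA, Hmgb2, a chromatin protein gene at 245 and 134 CPM (0.87), held 4 and 2, and Birc5 held 0 of each. CCAAT was in 5 of the 7 cell cycle promoters, in 34.5% of all 27025 promoters of that length and in 35.4% of the 4268 promoters of genes in use. TTTGAA or TTCGAA was in 3 of 7, 17.4% and 11.0%, and both were present in 3 of 7, 6.21% and 4.40%. The 7 include genes let in through Lipo-Clo alone. A match here is a match of letters only.

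Single cells showed how the mitotic UMIs were spread. With mitotic cells taken as those with at least 5 UMIs over 14 mitotic genes (Mki67, Top2a, Cdk1, Ccna2, Ccnb1, Ccnb2, Birc5, Cenpf, Cenpe, Ube2c, Tpx2, Aurkb, Bub1 and Plk1), a definition set after values were seen, 81 of 705 Lipo-Clo members (11.5%, 9.23 to 14.1%) and 34 of 602 Lipo-PBS members (5.65%, 3.94 to 7.80%) counted as mitotic. The log2 ratio was 1.02 (0.43 to 1.65). Other Col1a1-high cells had 5.67% and 5.52%, a log2 ratio of 0.04. Within those, cells with bone genes had 6.18% and 3.32%, a log2 ratio of 0.90 (0.16 to 1.67). The ratio was 0.24 in cells with Mmp13, 0.03 with few marker UMIs, −0.13 with follicle genes and −0.62 with adventitial genes. Kept cells that were not Col1a1-high, which include dividing blood cells, had 13.7% and 8.06%. After members were thinned to 2000 UMIs each, which left 663 and 553 of them, 6.33% and 4.16% had 5 or more mitotic UMIs, a log2 ratio of 0.61 (−0.16 to 1.41). With at least 3 mitotic UMIs after thinning, 8.75% and 5.61% of members counted, a log2 ratio of 0.64 (−0.01 to 1.32). Other Col1a1-high cells thinned in this way gave 0.07 (−0.35 to 0.48). At equal depth the interval of the difference in members thus included 0 at either limit. Members counted as mitotic had a median of 6304 UMIs in Lipo-Clo and 4659.5 in Lipo-PBS, and Scrublet called 12 of 81 and 3 of 34 of them doublets.

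By summed level, the 14 mitotic genes were at 718 CPM in Lipo-Clo against 288 CPM in Lipo-PBS members, a log2 ratio of 1.32 (1.19 to 1.44). The same sum was at 365 and 305 CPM in other Col1a1-high cells (0.26). Within those, cells with bone genes came closest to members, at 403 and 185 CPM (1.12), while cells with Mmp13 (0.21), adventitial genes (0.06) and follicle genes (−0.02) were near level and cells with few marker UMIs were lower in Lipo-Clo (−0.25). Kept cells that were not Col1a1-high were at 1170 and 630 CPM (0.89). By leading marker, 9.26% of Aspn-led members were mitotic in Lipo-Clo against 4.91% in Lipo-PBS, 11.2% against 5.83% of Omd-led members, and 8 of 33 against 4 of 44 Tnn-led members. With the mitotic members left out, which removes most mitotic UMIs by definition, the cell cycle median was −0.02.

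**Figure D5:**
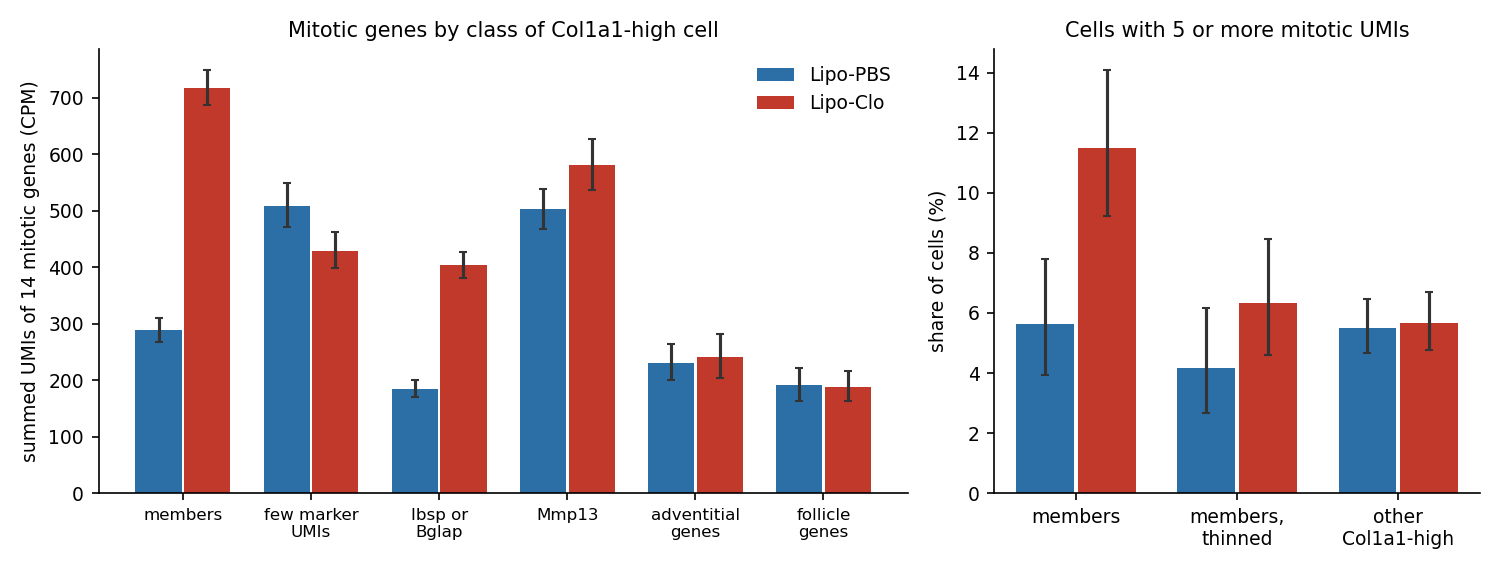
Left, summed UMIs of 14 mitotic genes in CPM by class of Col1a1-high cell in Lipo-PBS (blue) and Lipo-Clo (red), with exact 95% Poisson intervals. Right, the share of cells in % with at least 5 of these UMIs, with exact 95% binomial intervals, in members, in members thinned to 2000 UMIs and in other Col1a1-high cells. Members stand at 718 CPM in Lipo-Clo against 288 CPM in Lipo-PBS, and the intervals of the thinned shares overlap.

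Markers of other cell types in members moved with the conditions. The 6 neutrophil markers summed to 2960 CPM in Lipo-Clo against 852 CPM in Lipo-PBS members, were led by S100a9, and were seen in 79.0% and 35.1% of members. All kept cells had 29403 and 6382 CPM. S100a9 was at 1764 and 453 CPM (1.96) and S100a8 at 662 and 164 CPM (2.02), and with called doublets left out these log2 ratios were 0.99 and 1.08, and those of Ngp and Camp fell from 1.33 and 1.22 to 0.49 and 0.24. The 5 erythroid markers, led by Hbb-bs, summed to 18090 and 54248 CPM and were seen in 99.7% of members of each library. The 5 macrophage markers, none at 0 and led by C1qc, summed to 42.7 and 60.8 CPM in members and to 163 and 198 CPM in all kept cells. The 6 epithelial markers, led by Odam, summed to 808 and 478 CPM, with Enam at 0 in Lipo-PBS members.

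Markers of vessels, odontoblasts and pulp summed lower in Lipo-Clo members. The 6 endothelial markers, led by Egfl7, summed to 46.7 and 107 CPM, and the 4 perivascular markers, led by Rgs5, to 107 and 248 CPM. The 3 odontoblast markers, led by Nes, summed to 12.2 and 27.5 CPM, and the 3 pulp or papilla markers, led by Kcnip4, to 68.2 and 121 CPM. The 4 B cell markers, led by Igkc, summed to 63.2 and 71.2 CPM, a log2 ratio with an interval that included 0 (−0.48 to 0.13). Adventitial genes, limited by the rule and led by Ly6a, summed to 163 and 225 CPM, and follicle genes, likewise limited and led by Moxd1, to 244 and 214 CPM. Slpi (35.1 and 167 CPM, −2.25) and Lgals7 (17.9 and 99.9 CPM, −2.48) are also genes of epithelium. The part of these cells or of their RNA in the gene ratios was not tested.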

How the data were processed

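Molars with surrounding tissue of 1 Lipo-Clo and 1 Lipo-PBS library were analysed. The authors deposited counts of UMIs per gene and cell, not normalized, for 34285 genes, as 31053404 UMIs in 9362 Lipo-Clo cells and 30537834 in 9653 Lipo-PBS cells. Per the file headers they came from Cell Ranger 8.0.0, while the submitters' processing notes name Cell Ranger 3.1.0, Seurat 3.1.1 and GRCm39. Gene places and spans are those of GENCODE M21 on GRCm38 (5339 of 5359 genes in use matched by identifier), and promoters those of RefSeq GRCm38.p6.

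Members were found by the rule given in the report, the gene limit removing 473 and 748 cells (Lipo-Clo, then Lipo-PBS) and the mitochondrial limit 3 and 11. Members and gene lists were chosen with earlier results of these data known. UMIs were summed over members per library and scaled to CPM, and log2 ratios given exact conditional intervals for 2 Poisson counts. Genes in use had a UMI in at least 10% of members of either library. Named genes were those of the rule, members of the lists (most abundant or furthest apart), the 10 furthest apart in each direction and the 15 furthest above other Col1a1-high cells, the last 2 groups with at least 200 UMIs. No mitochondrially coded gene was named in the last 2 groups, though those genes had a median log2 ratio of −2.57 between conditions. Some genes that the rules chose, and a marker list, are not reported here. The steps were tested on simulated data.

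Alternatives were other limits on genes, marker UMIs and fold, edgeR 4.0.16 TMM and DESeq2 1.42.0 size factors (R 4.3.3), totals that leave out ribosomal protein, haemoglobin and mitochondrially coded genes, a mean of cells scaled to 10000 UMIs, a fixed mixture of leading markers, and doublets left out by Scrublet in scanpy 1.11.5. Its automatic threshold called 1 and 0 cells, so the 632 and 633 highest scores were used. Other work used Python 3.11.15, numpy 2.4.6, pandas 2.3.3, scipy 1.17.1 and matplotlib 3.10.9.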

Additional observations from a re-analysis of the deposited data

Results flagged for a closer look

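For 8 genes of the lists, the Lipo-Clo over Lipo-PBS ratio had one sign in periodontal ligament fibroblasts and the other in the remaining Col1a1-high cells, with both counting intervals clear of 0. Each class rests on 1 library per condition, so these differences were not tested. Lower in the ligament fibroblasts and higher in the rest were the collagen VI chain genes Col6a2 (log2 ratio −0.25 against 0.17) and Col6a3 (−0.14 against 0.07), the microfibril gene Fbn2 (−0.31 against 0.15), the metalloprotease inhibitor gene Timp1 (−0.22 against 0.07) and the pyrophosphate transport gene Ank (−0.57 against 0.19). Higher in the ligament fibroblasts and lower in the rest were the lysosomal protease gene Ctsb (0.33 against −0.13), the actin-binding gene Tagln (0.19 against −0.30) and the transcription factor gene Maf (0.25 against −0.21). None of the 8 was past 1.5-fold in ligament fibroblasts.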

How the results depend on the processing

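No paired analysis was possible because a single library stands for each treatment, and no replicate could be left out. Under TMM factors, DESeq2 size factors, totals that leave out ribosomal protein, haemoglobin and mitochondrially coded genes, a mean of scaled cells and a fixed mixture of leading markers, the 25 main values stayed within 1.5 times (counts of genes) or within their counting interval (list medians), and with doublets left out all 26 did, the share included. Medians near 0 changed sign within that interval: BMP genes from 0.021 to between −0.037 and −0.0083 under TMM, DESeq2, reduced totals or the mean of cells, and hedgehog genes to −0.00036 under reduced totals. Of the 231 higher and 478 lower genes, 200 and 478 were still past 1.5-fold under TMM or DESeq2 factors, 206 and 436 without doublets, 163 and 478 with the reduced totals, 171 and 400 by the mean over cells, 161 and 410 without mitotic members (7 of the higher had the other sign), 129 and 331 with no excluding gene seen (20 and 30 had the other sign), and 106 and 214 relative to genes of like span. The log2 ratio of the share of cells was −0.12 after thinning to 2000 UMIs. At 2-fold, 30 genes were higher and 99 lower. With genes taken from a sum of 20 UMIs upward instead, 1.5-fold gave 990 and 1602. Against other Col1a1-high cells, 1.5-fold gave 28 higher and 78 lower genes and 3-fold gave 0 and 2. With at least 10 marker UMIs the medians were −0.12 for fibrillar and −0.53 for fibril-associated collagens and 0.064 for osteoclast signal genes (−0.24 in all members).

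Chosen after the data were seen were the next 4 settings. With no exclusions applied the share ratio was −0.28, and among cells with no excluding gene seen it was 0.89. The latter left 133 Lipo-Clo and 72 Lipo-PBS members, with 826 higher and 981 lower genes and medians of −0.48 for ligament, −0.18 for fibrillar, 0.11 for fibril-associated collagen, −0.79 for osteoclast signal, 0.083 for immediate early and 0.14 for ribosomal protein genes. There the perivascular markers (3.07, as Rgs5), Sfrp2 (0.22), Fbln2 (0.037), Mmp16 (0.62), Top2a (−0.38) and Vegfa (0.47) had the other sign. With mitotic members left out, the cell cycle median was −0.016, Ube2c −0.49, Top2a −1.21 and Hmgb2 −0.038. Relative to genes of the same span bin, 270 genes were lower, and medians were 0.040 for fibrillar collagens, −0.46 for proteoglycans, 0.071 for IGF, −0.15 for transcription factor, −0.35 for immediate early, −0.038 for axon guidance, 0.11 for oxidative phosphorylation and −0.037 for ribosomal protein genes. Where a direction turned, the cause was not tested beyond what each setting removes. Depth limits genes of few UMIs: in these members 3 counts are 0.993 CPM (Lipo-Clo) and 1.25 CPM (Lipo-PBS).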

Other observations

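Both libraries hold RNA that marks cells of female and of male mice: Xist was at 142 CPM in Lipo-Clo members against 178 CPM in Lipo-PBS members, and the Y-linked Ddx3y at 23.5 and 42.1 CPM. Insl6, a relaxin family peptide gene on neither the list of ligament nor of signalling genes, was at 116 CPM in Lipo-Clo members against 30.0 CPM in Lipo-PBS members, a log2 ratio of 1.95 (1.58 to 2.33), and was seen in 26.2% and 10.1% of them. Its ratio was 2.61 in Aspn-led and 1.61 in Omd-led members and 1.71 in other Col1a1-high cells. Fkbp5, which glucocorticoids induce, was at 64.2 and 26.2 CPM (1.29, 0.87 to 1.73), and 0.55 in other Col1a1-high cells.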
